A study of Rattus norvegicus with 8 samples.

Results

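Matricellular proteins are secreted proteins that sit in the extracellular matrix and bind both its fibres and receptors on the cell surface, chiefly integrins. They tune attachment, spreading and the response to growth factors, and are best known in tendon, disc and healing wounds, where their expression follows load and injury. The 10 genes described here were taken from the deposited table by symbol: osteopontin (Spp1), SPARC (Sparc), thrombospondins 1 and 2 (Thbs1, Thbs2), cartilage oligomeric matrix protein (Comp), fibronectin (Fn1), tenascin C (Tnc), periostin (Postn) and the CCN proteins Ccn1 and Ccn2. Each has a single row among the 31699 rows of the table, under its current symbol, and all 10 reached the mean of 1 TPM over the 8 samples that was required for a test, as did 13103 rows in all. Comp did so only through the samples in which it was higher.

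The cells were annulus fibrosus cells (AFCs) of Sprague Dawley rats, taken from the outer ring of the intervertebral disc, grown in culture and used at the third passage. Every sample was exposed to cyclic mechanical stretch (CMS), so no unstretched cells enter the comparison. In 4 samples (Lv-Ctrl) the cells had received the lentiviral vector pLVX-shRNA-Puro, and in the other 4 (Lv-Piezo1) the same vector with 1 short hairpin RNA against Piezo1, a channel opened by membrane tension. The tissue of several rats was pooled for each isolation, and the study describes its rats as young adult males where it describes their surgery, without repeating this for the isolations. The study calls the 4 samples of a group biological repeats and counts the cells of an isolation as an independent repeat. It states a maximum of 4 such repeats and describes sequencing 4 repeats that received either treatment. By that account both groups could come from the same isolations. The labels number the samples but do not name the isolation behind each. The measure is TPM, a share of all transcripts, which is scaled by transcript length and has the same total in every sample. Levels of different genes can therefore be set side by side, but the sequencing depth is unknown.

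Piezo1 itself was higher in the samples labelled Lv-Piezo1, at 39.4 ± 1.75 TPM against 30.1 ± 2.67 TPM (SD, n = 4 each; adjusted p = 8.6e-04 from limma). The study reports its knockdown as verified, but its text does not say whether in transcript or in protein. Its methods list a Piezo1 antibody for western blots. The values here are of transcript, and their direction is the opposite of what a hairpin against Piezo1 is meant to do. Whether the labels were exchanged cannot be told from these values, so every direction below is that of the labels. The 13 mitochondrially encoded genes took 6.87% to 7.74% of the TPM in Lv-Ctrl and 5.69% to 6.16% in Lv-Piezo1. Single libraries were often the outermost of their group. Replicate 3 of Lv-Ctrl was the lowest in 9 of the 10 members and in 48.8% of all tested genes, replicate 2 of Lv-Piezo1 the lowest in 9 members and 35.5% of genes, and replicate 4 of Lv-Piezo1 the highest in all 10 members and 42.7% of genes. Across all tested genes the median log2 fold change was 0.14, and median-ratio scaling of the samples brought it to -0.0046. Of the called genes 64.1% were higher on the deposited values, 52.3% after that scaling and 48.8% after quantile normalization. Of 8 annulus and tendon-like markers 7 were tested, and by the adjusted p Col1a1, Col1a2 and Scx were higher and Mkx, Fmod and Dcn lower. The only one that also met the size required for a call, defined below, was Dcn (decorin), at 1456 ± 69.3 TPM in Lv-Ctrl and 519 ± 14.9 TPM in Lv-Piezo1 (SD, n = 4 each). Tnmd was listed at 0 in 7 of the 8 samples. Of 7 nucleus pulposus and notochord markers, 5 had a row, and Tbxt, Shh and Noto were listed at 0 in all 8 samples. Krt18 was at most 0.07 TPM. Krt8 was the only 1 tested, at 2.56 ± 0.29 TPM in Lv-Ctrl and 3.17 ± 0.534 TPM in Lv-Piezo1 (SD, n = 4 each; adjusted p = 0.12 from limma).

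The matricellular genes did not move together. Ccn2, Postn, Fn1, Tnc and Comp were higher in the samples labelled Lv-Piezo1 by 2.18 to 3.88 times. Spp1, Thbs2 and Sparc were lower, by 35.3%, 32.6% and 14.6%. Thbs1 and Ccn1 did not pass the test. A gene was called where the log2 fold change, taken on log2(TPM + 1), was 1 or more in size and its p from limma, adjusted by the Benjamini-Hochberg method, was below 0.05. By this rule 5 of the 10 members were called higher, against 4.91% of all tested genes. Called lower by limma were 0 members, against 2.76% of all tested genes, and 3 members were lower at an unadjusted p below 0.05. In either direction 7.67% of all tested genes were called. By the adjusted p alone, 5 members were higher and 3 lower, where 41.9% and 16.3% of all tested genes were, or 58.2% in either direction. Without Comp, 4 of 9 members were called. The groups did not overlap in 8 of the 10 members, 5 of them higher and 3 lower, a pattern found in 54.2% of all tested genes, 39.8% higher and 14.5% lower. The median log2 fold change of the members was 0.59.

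**Figure D1:**
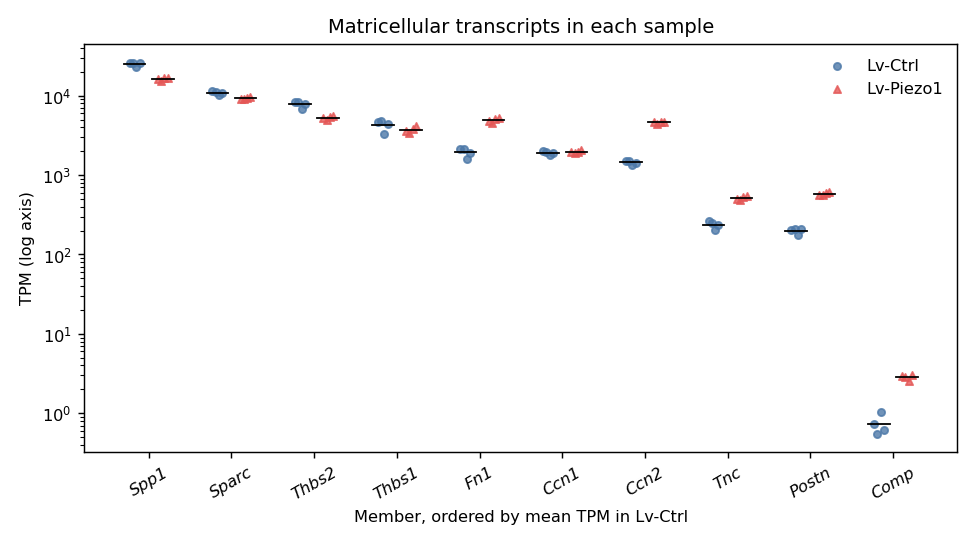
TPM of each member in each sample on a log axis, ordered by the mean in Lv-Ctrl, with circles for Lv-Ctrl, triangles for Lv-Piezo1 and a bar at each group mean. The 3 most abundant members lie lower in Lv-Piezo1, Thbs1 and Ccn1 overlap, and Fn1, Ccn2, Tnc, Postn and Comp lie higher.

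Spp1 encodes osteopontin, a phosphorylated glycoprotein of bone matrix and of wounds that binds integrins and CD44. It measured 25648, 25553, 23122 and 26177 TPM in replicates 1 to 4 of Lv-Ctrl and 16184, 15478, 16559 and 16804 TPM in those of Lv-Piezo1. Every Lv-Ctrl sample lay above every Lv-Piezo1 sample. In limma the difference came to -0.63 ± 0.05 (log2 fold change ± SE, adjusted p = 4.5e-06), too small in size for a call. Spp1 nonetheless held the 3rd place among all rows in each of the 8 samples.

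Sparc encodes a collagen-binding protein that takes part in collagen assembly and weakens cell attachment. Its levels were 11432, 11054, 10242 and 10692 TPM in Lv-Ctrl and 9172, 8971, 9401 and 9544 TPM in Lv-Piezo1. The groups did not overlap, although the gap between them was small beside their levels. The log2 fold change of Sparc was -0.23 ± 0.04 (SE; limma, adjusted p = 0.0011), and -0.39 after median-ratio scaling. Sparc held the 6th place among all rows in every sample. Quantile normalization, which gives equal values to equal places, therefore set the difference of both Spp1 and Sparc to 0.

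Thbs1 and Thbs2 encode the thrombospondins that assemble as trimers, which bind CD47 and CD36 and restrain the growth of vessels. Thbs1 is also an activator of latent TGF-beta. Thbs2 measured 8397, 8441, 6722 and 7897.5 TPM in Lv-Ctrl and 5188, 5009, 5395 and 5620.3 TPM in Lv-Piezo1, again without overlap. For Thbs2, limma gave a log2 fold change of -0.56 ± 0.07 (SE; adjusted p = 1.6e-04). After quantile normalization it was -0.27.

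Thbs1 measured 4681, 4783, 3273 and 4381 TPM in Lv-Ctrl and 3593, 3368, 3803 and 4154 TPM in Lv-Piezo1. Replicate 3 of Lv-Ctrl was the lowest of all 8 values, and the other three Lv-Ctrl samples lay above all of Lv-Piezo1. The difference on the log2 scale was -0.19 with a 95% confidence interval of -0.46 to 0.08 (adjusted p = 0.21 from limma). Without replicate 3 of Lv-Ctrl it was -0.31 (adjusted p = 0.0058 from limma), and after median-ratio scaling -0.35 (adjusted p = 0.014 from limma). The verdict on Thbs1 thus turned on 1 library and on the scaling. Thbs1 had the widest spread of the abundant members, with a coefficient of variation of 16.2% in Lv-Ctrl, where that of Ccn1 was 4.47%.

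Fn1 encodes fibronectin, the adhesive glycoprotein on whose fibrils collagen and many matricellular proteins are laid down. It measured 2102, 2135, 1608 and 1914 TPM in Lv-Ctrl and 4781, 4556, 5078 and 5216.5 TPM in Lv-Piezo1. The lowest Lv-Piezo1 value was more than double the highest Lv-Ctrl value. Its log2 fold change was 1.35 ± 0.09 (SE; limma, adjusted p = 2.0e-06). Fn1 rose from between the 56th and 94th place among all rows to between the 12th and 15th.

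Tnc encodes tenascin C, a large glycoprotein that loosens attachment to fibronectin and is made in loaded tendon and in wounds. Its levels were 262, 252, 206 and 233 TPM in Lv-Ctrl and 504, 490.4, 534 and 550.1 TPM in Lv-Piezo1. All samples labelled Lv-Piezo1 lay well above those labelled Lv-Ctrl. This gave a log2 fold change of 1.12 ± 0.07 (SE; limma, adjusted p = 1.9e-06), and of 0.96 after median-ratio scaling, which is below the size required for a call (adjusted p = 8.3e-07 from limma).

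Postn encodes periostin, which binds collagen and tenascin C and promotes the crosslinking of collagen. It measured 206, 208, 177 and 207 TPM in Lv-Ctrl and 566, 555, 594 and 614 TPM in Lv-Piezo1. The groups were far apart, and within Lv-Ctrl only replicate 3 departed from the others. Periostin transcripts thus differed by a log2 fold change of 1.54 ± 0.06 (SE; limma, adjusted p = 5.2e-08). Tnc stood above Postn in every Lv-Ctrl sample, at a ratio of 1.19 ± 0.0626, and below it in every Lv-Piezo1 sample, at 0.892 ± 0.00719 (SD, n = 4 each).

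Comp encodes a thrombospondin of cartilage and tendon that assembles as a pentamer and organises collagen fibrils. It was the scarcest member, with 0.74, 0.55, 1.04 and 0.62 TPM in Lv-Ctrl and 2.97, 2.84, 2.56 and 3.07 TPM in Lv-Piezo1. The groups did not overlap, but Lv-Ctrl lay near the limit for testing. On the log2(TPM + 1) scale Comp differed by 1.16 ± 0.12 (SE; limma, adjusted p = 3.4e-05), which understates the ratio of its means, 3.88, because the added 1 is large beside its levels. The difference was 1.85 with a pseudocount of 0.1 and 0.93 after quantile normalization, the latter short of a call.

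Ccn1 and Ccn2 are close relatives that bind integrins and heparan sulfate, respond quickly to serum and stretch, and are widely used as readouts of the coactivator YAP with its DNA-binding partners of the TEAD family. Of the pair, Ccn2 passed the test on the deposited values and Ccn1 did not. Ccn2 measured 1488, 1522, 1323 and 1441 TPM in Lv-Ctrl and 4659, 4468, 4655 and 4661 TPM in Lv-Piezo1. Its groups lay far apart, with a log2 fold change of 1.68 ± 0.04 (SE; limma, adjusted p = 7.3e-09), the largest among the 10 members on this scale.

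Ccn1 measured 1994, 1969.7, 1805 and 1890.1 TPM in Lv-Ctrl and 1979.9, 1922, 1967 and 2048 TPM in Lv-Piezo1, and the groups overlapped. Its log2 fold change was 0.05 with a 95% confidence interval of -0.04 to 0.13 (adjusted p = 0.30 from limma). The direction of this small difference depended on the scaling, since it was -0.11 after median-ratio scaling (adjusted p = 0.0079 from limma) and 0.12 after quantile normalization (adjusted p = 0.046 from limma). Within each sample, Ccn2 stood at 0.754 ± 0.0176 times Ccn1 in Lv-Ctrl and at 2.33 ± 0.0401 times Ccn1 in Lv-Piezo1 (SD, n = 4 each), ratios that no scaling by a constant factor per sample changes. The pair was singled out after its values had been seen, and the ratio was not tested.

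The promoters of this pair are shown because the genes share a regulator in textbooks and differed in the samples. The sequences are the 250 bases before the start of each gene in the RefSeq table of build GRCr8, Ccn1 at chr2:237225690-237225939 and Ccn2 at chr1:22624615-22624864, both on the minus strand and written 5′ to 3′ along the gene. Capitals mark each match to the TEAD motif GGAATG on either strand.
Ccn1: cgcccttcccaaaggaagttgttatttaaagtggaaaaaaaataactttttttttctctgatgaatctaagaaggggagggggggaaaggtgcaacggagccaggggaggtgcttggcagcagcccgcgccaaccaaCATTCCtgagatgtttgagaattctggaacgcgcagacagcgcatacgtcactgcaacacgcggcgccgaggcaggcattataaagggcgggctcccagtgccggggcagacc
Ccn2: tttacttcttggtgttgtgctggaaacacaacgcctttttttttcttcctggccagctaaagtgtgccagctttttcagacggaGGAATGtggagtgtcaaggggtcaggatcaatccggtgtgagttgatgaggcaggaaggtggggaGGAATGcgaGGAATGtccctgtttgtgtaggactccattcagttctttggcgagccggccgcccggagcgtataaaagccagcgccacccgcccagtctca
Ccn2 held 3 matches, which begin 166, 101 and 92 bases before the start. Ccn1 held 1, on the other strand, 113 bases before it. Of the 33469 promoters in the table, 12.1% held at least 1 match in this window and 0.0807% held 3 or more. Among the 8 members in the table, Thbs1 and Sparc held 1 match each, and Postn, Tnc, Spp1 and Comp none. Thbs2 and Fn1 were not matched. Any link between these matches and the levels of the genes was not tested. The AP-1 motif TGANTCA, found in 6.34% of the windows, and the CArG box bound by serum response factor, found in 501 windows of the table, had no match on either strand in the 8 member windows.

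**Figure D2:**
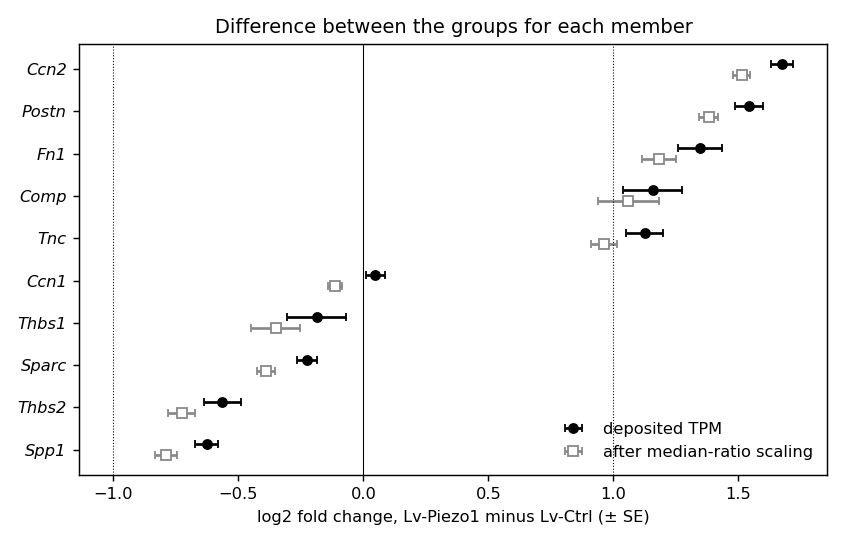
Log2 fold change of each member, Lv-Piezo1 minus Lv-Ctrl, on the log2(TPM + 1) scale with the standard error from limma as bars, filled for the deposited values and open after median-ratio scaling; dotted lines mark a change of 1. Ccn2, Postn, Fn1 and Comp stay beyond the line under both, Tnc falls to 0.96, and Ccn1 changes sign.

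The order of the levels changed along with these differences. In Lv-Ctrl it ran Spp1, Sparc, Thbs2, Thbs1, Fn1, Ccn1, Ccn2, Tnc, Postn, Comp, and the sample ranges of Fn1 and Ccn1 overlapped, as did those of Tnc and Postn. In Lv-Piezo1 it ran Spp1, Sparc, Thbs2, Fn1, Ccn2, Thbs1, Ccn1, Postn, Tnc, Comp. There the ranges of Thbs2 and Fn1 overlapped, as did those of Fn1 and Ccn2. Within every Lv-Piezo1 sample, however, Fn1 stood below Thbs2, at a ratio of 0.925 ± 0.0132 (SD, n = 4), and above Ccn2. Spp1, Sparc and Thbs2 together made up 81.4% ± 0.941 of the summed TPM of the members in Lv-Ctrl and 65.4% ± 0.323 in Lv-Piezo1 (SD, n = 4 each).

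On the deposited values the groups overlapped in the total of the members but not in the shares of most. The members summed to 53860.3 ± 3636 TPM in Lv-Ctrl and 47162 ± 1885 TPM in Lv-Piezo1 (SD, n = 4 each), which is 5.39% and 4.72% of all TPM, and the totals overlapped because replicate 3 of Lv-Ctrl had 48479 TPM and replicate 4 of Lv-Piezo1 had 49214 TPM. The share of Spp1 in this sum went from 46.7% ± 1.19 to 34.5% ± 0.237. That of Fn1 went from 3.59% ± 0.23 to 10.4% ± 0.223, and that of Ccn2 from 2.68% ± 0.0509 to 9.78% ± 0.246 (SD, n = 4 each). Thbs1 kept a similar share, 7.91% ± 0.803 and 7.90% ± 0.4. Median-ratio scaling divided the Lv-Ctrl samples by 0.899 to 0.972 and the Lv-Piezo1 samples by 1.04 to 1.09, which moves these totals apart. The sum and shares are descriptions and were not tested. In bulk samples such as these, fewer cells of a type and less RNA per cell cannot be told apart.

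**Figure D3:**
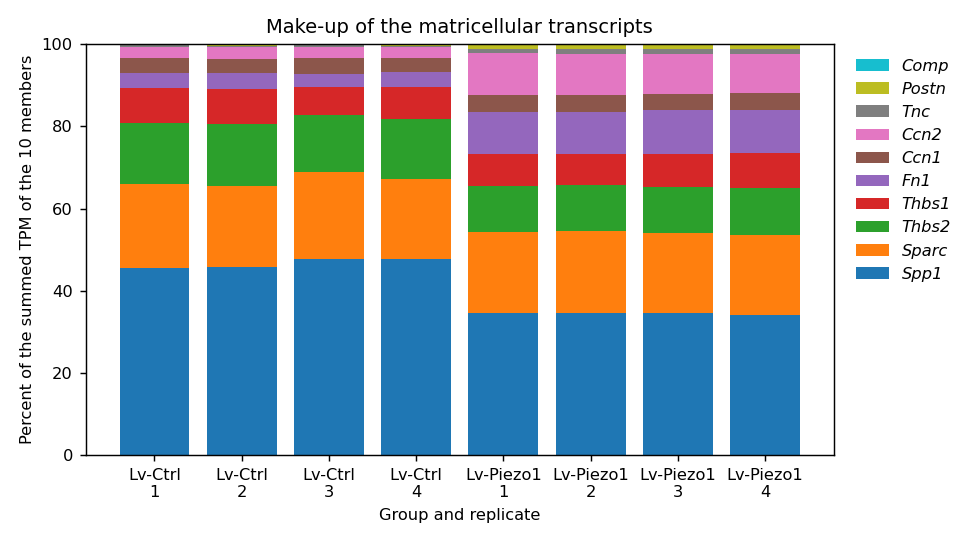
Share of each member in the summed TPM of the 10 members, in percent, 1 bar per sample. Spp1 fills 45.6% to 47.7% of the Lv-Ctrl bars and 34.1% to 34.7% of the Lv-Piezo1 bars, while Fn1 and Ccn2 each widen, to means of 10.4% and 9.78%.

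The relatives of the members split in part by family. Thbs3 and Thbs4, which assemble as pentamers like Comp, were both higher in Lv-Piezo1 by the adjusted p, whereas the trimeric Thbs1 and Thbs2 were not. Thbs4, a thrombospondin of tendon and muscle, stood at 56.4 ± 2.95 TPM in Lv-Ctrl and rose to 529 ± 15.9 TPM in Lv-Piezo1 (SD, n = 4 each). Its log2 fold change was 3.21 (limma, adjusted p = 1.2e-10). Thbs3 went from 12.9 ± 0.997 to 18.3 ± 0.788 TPM, a log2 fold change of 0.48 (adjusted p = 1.6e-04 from limma). Even so, the trimeric pair held 9032 TPM in Lv-Piezo1 and the pentameric trio 550.3 TPM.

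The other tenascin above the limit for testing, Tnn, rose with Tnc, from 270.3 ± 31.7 to 772 ± 43.0 TPM (log2 fold change 1.52, adjusted p = 6.1e-07 from limma). Of the CCN genes, Ccn2, Ccn3, Ccn4 and Ccn5 had an adjusted p below 0.05 and were higher, as were 41.9% of all tested genes. Ccn3, which often opposes Ccn2, rose from 82.3 ± 7.14 to 231 ± 8.26 TPM (SD, n = 4 each). Ccn5 missed the size required for a call at 0.94, and Ccn4 at 0.64. Ccn1 was thus the only CCN gene of the 5 tested that did not pass on the deposited values.

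Among the relatives of Sparc, Smoc2 rose from 28.2 ± 1.65 to 96.8 ± 2.52 TPM (log2 fold change 1.75, adjusted p = 6.7e-09 from limma) while Sparc was lower. Ibsp, the bone sialoprotein related to Spp1, was lower like it, from 199 ± 10.9 to 151 ± 5.96 TPM (log2 fold change -0.39, adjusted p = 8.8e-05 from limma). Dmp1, the third tested gene of that family, was higher, at 1.66 ± 0.208 and 3.89 ± 0.226 TPM (log2 fold change 0.88, adjusted p = 3.4e-05 from limma). Tgfbi, which shares the fasciclin domains of Postn, went the opposite way to it and fell from 809 ± 21.1 to 297 ± 8.50 TPM (log2 fold change -1.45, adjusted p = 2.3e-09 from limma). These families were described after earlier results of the same samples were known, and no test compares them.

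**Figure D4:**
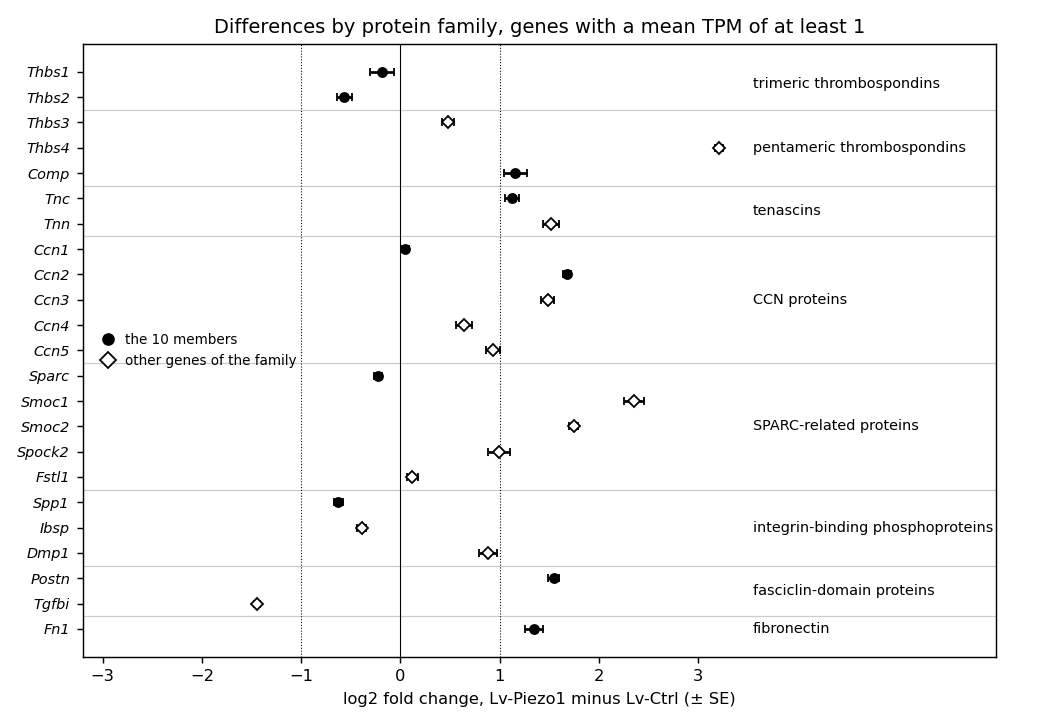
Log2 fold change, Lv-Piezo1 minus Lv-Ctrl, with the standard error from limma, for the tested genes of 8 protein families; filled circles are the 10 members, open diamonds their relatives, and dotted lines mark a change of 1. Thbs1 and Thbs2 lie below 0 and Thbs3, Thbs4 and Comp above it, Ccn1 is at 0.05 among CCN genes from 0.64 to 1.68, and Postn and Tgfbi lie on opposite sides.

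In a wider list of 41 other matricellular and matrix-associated genes, 28 were tested, 9 were called higher and 4 lower, with a median log2 fold change of 0.56. That is 46.4% of those tested, beside 7.67% of all tested genes, whose median was 0.14. The 4 largest rises at a mean of at least 5 TPM were those of Fbln2, Thbs4, Aebp1 and Smoc2. Fbln2, a fibulin of elastic fibres and basement membranes, rose from 3.33 ± 0.424 to 54.2 ± 1.09 TPM, a log2 fold change of 3.68 (adjusted p = 1.0e-09 from limma). Aebp1, a collagen-binding protein of the fibrillar matrix, rose from 69.9 ± 3.90 to 286 ± 5.91 TPM, a log2 fold change of 2.02 (adjusted p = 1.8e-09 from limma). The falls by the same rule were those of Matn2, Fbln1 and Tgfbi. Fbln1 fell from 335.5 ± 15.2 to 84.6 ± 2.50 TPM (log2 fold change -1.97, adjusted p = 1.5e-09 from limma), so 2 fibulins moved in opposite directions. Matn2, a matrilin, fell from 12.1 ± 0.77 to 2.23 ± 0.125 TPM (SD, n = 4 each in all of these). With the limit of 1 TPM applied to each group, 26 genes were tested, 8 called higher and 4 lower. Under that limit 12378 genes were tested in all, 452 called higher and 279 lower.

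Of 25 listed genes for integrin subunits, syndecans, CD44, CD47 and other receptors, 17 were tested and 1 was called, Itgb3, which is 5.88% of those tested beside 7.67% of all tested genes. The median log2 fold change of these receptors was -0.06. Of the 17 tested, 4 were higher and 4 lower by the adjusted p alone, where 41.9% and 16.3% of all tested genes were. Itgb3, a subunit of the vitronectin and osteopontin receptor, had 0.253 ± 0.111 TPM in Lv-Ctrl and 1.81 ± 0.433 TPM in Lv-Piezo1, and passed the limit for testing only through the latter. The integrin subunits that form the main fibronectin receptor were both higher without reaching a call, Itga5 with a log2 fold change of 0.56 (adjusted p = 3.9e-05 from limma) and Itgb1 with 0.54 (adjusted p = 2.3e-04 from limma). Cd47, the thrombospondin receptor, was lower by 0.38 on the same scale (adjusted p = 3.0e-04 from limma). The names Itga5, Itgb1 and Cd47 were picked for their ligands after the values had been seen.

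Of 36 listed regulators of these genes and proteases that cut their products, 34 were tested, 4 were called higher and 2 lower, with a median log2 fold change of 0.06. That is 17.6% of those tested, beside 7.67% of all tested genes. Tgfb3, a TGF-beta ligand, rose from 60.7 ± 1.80 to 426 ± 10.7 TPM, a log2 fold change of 2.79 (adjusted p = 6.6e-11 from limma). Tgfb2 rose from 14.2 ± 1.34 to 30.3 ± 1.35 TPM, a log2 fold change of 1.05 (adjusted p = 1.9e-06 from limma) that was 0.99 without replicate 3 of Lv-Ctrl and 0.89 after median-ratio scaling, both short of a call. Mmp9, a gelatinase, rose from 4.51 ± 0.532 to 24.4 ± 1.31 TPM (adjusted p = 3.6e-08 from limma). The proteases Mmp3 and Ctsk fell, Mmp3 from 659 ± 17.9 to 232 ± 5.33 TPM (adjusted p = 1.5e-09 from limma) and Ctsk from 220.1 ± 5.01 to 73.3 ± 2.76 TPM (adjusted p = 2.7e-09 from limma; SD, n = 4 each in all of these). The fourth gene called higher was Myocd, a coactivator of smooth muscle genes, at 0.82 ± 0.173 and 3.00 ± 0.0843 TPM. It was below 1 TPM on average in Lv-Ctrl.

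Markers of other cells that make these proteins were read beside them. Of 10 smooth muscle and pericyte markers, 8 were tested and 6 were called higher, where 4.91% of all tested genes were. The summed level of the 10 markers went from between 442 and 451 TPM in Lv-Ctrl to between 4551 and 4722 TPM in Lv-Piezo1. The part of this difference in the rises of Fn1, Ccn2, Tnc, Postn and Comp was not tested. Macrophages are a known source of osteopontin and fibronectin. Of 8 macrophage markers, Adgre1, C1qa and Cd163 were listed at 0 in all 8 samples, Ptprc reached 0.01 TPM in 1 sample, and the summed level was 21.3 to 23.3 TPM in Lv-Ctrl and 37.1 to 41.9 TPM in Lv-Piezo1, most of it Cd14 and Cd68. Cd68 was called higher, at 0.955 ± 0.899 TPM in Lv-Ctrl and 12.3 ± 0.901 TPM in Lv-Piezo1 (adjusted p = 2.7e-05 from limma), and passed the limit for testing only through the latter. Cd14 was higher by the adjusted p without a call, at 20.9 ± 0.324 and 25.8 ± 1.91 TPM (adjusted p = 0.0015 from limma). The part of this difference in the values of Spp1 and Fn1 was not tested. Of 6 osteoblast markers, Ibsp made up most of a sum of 190.8 to 218 TPM in Lv-Ctrl and 157 to 171 TPM in Lv-Piezo1. Runx2 was at 5.65 ± 0.554 and 7.73 ± 0.723 TPM (adjusted p = 0.0034 from limma) and Alpl at 2.20 ± 0.205 and 1.87 ± 0.305 TPM (adjusted p = 0.23 from limma), while Bglap was listed at 0 in every sample and Sp7 was at most 0.08 TPM. Of 7 endothelial markers, 6 were in the table, and their sum was 25.2 to 34.0 TPM in Lv-Ctrl and 28.2 to 33.2 TPM in Lv-Piezo1, nearly all of it Egfl7. Of 6 chondrocyte-like markers, Acan and Sox9 were tested and none was called, and the sum was 32.1 to 39.1 TPM in Lv-Ctrl and 50.2 to 53.6 TPM in Lv-Piezo1. Acan, most of that sum, was higher by the adjusted p, at 31.6 ± 2.95 and 47.1 ± 1.82 TPM (adjusted p = 8.7e-05 from limma).

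For each member, the tested gene with the most similar profile over the 8 samples was found by the root mean square distance between centred log2(TPM + 1) values, among 11580 genes with a symbol. The nearest to Thbs2 was Myh10, a non-muscle myosin heavy chain, at a distance of 0.0134. The nearest to Tnc was Myh9, another such myosin, at 0.0331. Postn was nearest to Ccn3 at 0.0386 and Ccn2 to Smoc2 at 0.0508, both of which belong to the families above. Ccn3 had a log2 fold change of 1.48 beside 1.54 for Postn, and Smoc2 1.75 beside 1.68 for Ccn2. The distance is taken across both groups, so it includes the difference between them, and shared regulation was not tested. Ccn1 was nearest to Nono at 0.0175, Sparc to Vasn at 0.0201, Thbs1 to Sptbn1 at 0.026, Spp1 to Dpy19l1 at 0.0264, Comp to Mapk12 at 0.0343 and Fn1 to Adgra2 at 0.044.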

How the data were processed

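RNA of AFCs under CMS was sequenced in 4 Lv-Ctrl and 4 Lv-Piezo1 samples. After trimming, the authors aligned reads to a rat genome (HISAT2) and assembled transcripts (StringTie). They deposited TPM per gene, with 1 column per sample and 1 mean per group. How TPM was made, the rat build and the annotation are not given in the sources used here. The submitters' processing notes list mm10, a mouse build, and DESeq2, while the methods name FPKM and DESeq. TPM is not a count, so limma 3.58.1 in R 4.3.3 was fitted to log2(TPM + 1) (empirical Bayes with a trend, Benjamini-Hochberg adjustment) where the mean over samples reached 1 TPM, all 8 samples in 1 fit and no block. TPM keeps no depth, so precision rests on the spread of 4 samples. Promoters came from RefSeq tables of GRCr8.

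The members and lists were chosen with earlier results of these data known. Named were all members and, from 3 other lists, up to 4 called rises and 4 falls at a mean TPM of at least 5, besides relatives of the members and a few picked later, as stated there. Alternatives were other filters, a pseudocount of 0.1, a fit blocked on replicate number, a fit with no trend, median-ratio scaling, calls by adjusted p alone, dropping mitochondrial genes, quantile normalization and dropping each sample. The filter of 1 TPM in each group was added after seeing the data.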

Additional observations from a re-analysis of the deposited data

Results flagged for a closer look

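In 2 of 24 groups of 4 values examined, each member, Piezo1 and the members' sum in either group, the outermost sample stood apart from the others by Dixon's ratio at the 95% level, which chance gives in about 1 of 20 groups. Postn in replicate 3 of Lv-Ctrl was the lowest of its group at 177 TPM, with a gap to the next sample of 0.938 of the group's range. Ccn2 in replicate 2 of Lv-Piezo1 was the lowest of its group at 4468 TPM, with a gap of 0.971 of the range. Leaving out any 1 sample kept the log2 fold change of Postn between 1.49 and 1.57 and that of Ccn2 between 1.64 and 1.70.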

How the results depend on the processing

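Under the alternatives with a fold change threshold, 4 to 5 members were called higher and 0 lower. The count was 4 after median-ratio scaling, where Tnc fell short, after quantile normalization, where Comp did, and with a mean of at least 5 TPM or of at least 1 TPM in each group, where Comp was not tested. Without the fold change threshold, 3 members were lower, and of the lists 16 other matricellular genes were higher and 10 lower, 4 receptors higher and 4 lower, and 13 regulators and proteases higher and 9 lower. The same change gave 5489 higher and 2137 lower genes in all, and a mean of at least 5 TPM gave 372 higher genes. Receptors called higher numbered 0 with a mean of at least 5 TPM, with at least 1 TPM in each group and after quantile normalization, and regulators and proteases 2 after quantile normalization. Ccn1 changed sign from 0.05 to -0.11 after median-ratio scaling, which lowered the log2 fold change of every member. That of Thbs1 went from -0.19 to -0.35 and that of Ccn2 from 1.68 to 1.51. The summed TPM of the members was 47152 in Lv-Ctrl and 52884 in Lv-Piezo1 after quantile normalization, the reverse of the order on the deposited values, 58199 and 50133 without the mitochondrially encoded genes, and 44457 in Lv-Piezo1 after median-ratio scaling. Spp1 and Sparc held the same places in every sample, so quantile normalization fixed their difference at 0. The reversed order of the sums thus follows in part from the method. Leaving out 1 sample gave means of 53077 to 55654 in Lv-Ctrl and 46478 to 47943 in Lv-Piezo1. Samples with the same replicate number did not deviate together (correlations over tested genes from -0.06 to -0.01 in 4 pairs, and 0 of 8 samples correlated best with its own number). Deviations from the means of such small groups cannot show whether a shared number marks a shared isolation. The study's account allows isolations shared by both groups, but which samples were paired remained unknown, and the main fit had no block. With the replicate number as a block, 644 genes were higher and 360 lower, 5 members were called, and Piezo1 had the same log2 fold change of 0.38.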
